A study of Arabidopsis thaliana with 9 samples.

Results

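The photoperiod genes CO, COL1, COL2, FKF1, CDF1, CDF2, CDF3 and CDF5 were followed across 3 genotypes of Arabidopsis thaliana seedlings by RNA-seq. They were chosen by gene identifier, and these 8 genes are 8 of the 32548 genes in the table. The quintuple mutant al24567 has the genotype al2-/- al4-/- al5-/- al6-/- al7-/-, in genes for ALFIN-like proteins, plant homeodomain proteins that bind histone H3 methylated at lysine 4. The double mutant ring1a1b is ring1a-/- ring1b-/- and carries lesions in genes for the RING1 proteins, which attach ubiquitin to histone H2A within Polycomb repressive complex 1. The wild type is Col-0. Each genotype had 3 libraries from 11-day-old seedlings kept at 22°C in 16 h of light and 8 h of dark; the labels do not give the hour of harvest, nor whether replicates were grown separately, so the p-values speak of the spread among these libraries, which may be technical. Whole seedlings were used, so fewer cells of a type and less RNA per cell cannot be told apart.

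Plants that flower in long days read day length through the timing of CO, a B-box zinc finger activator that turns on FT, the mobile flowering signal, when its protein accumulates in light. CDF proteins (cycling Dof factors) repress the CO and FT promoters early in the day. In the afternoon FKF1, a blue-light receptor with an F-box and kelch repeats, joins the protein GI and marks CDF proteins for destruction. Transcripts of all these genes cycle daily, so their level in a single harvest belongs to the hour at which it was taken.

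The values are read counts that had been adjusted to a common library size; they are not divided by gene length. The gene counts recovered from these values, called reads here, summed to 18258434 to 22435659 per library. Among the mutated genes, AL2, AL4, AL6 and AL7 fell in al24567 by log2 values of -2.69 to -1.72, and AL5 did not pass the test (log2 fold change -0.06). In ring1a1b the log2 fold change was -6.22 for RING1A and -0.79 for RING1B, and both fell. The leaf transcripts RBCS1A and LHCB2.1 and the root transcript PRP3 were present in all 9 libraries, the lowest value among them being 503.

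The promoter of CO is shown because CDF proteins repress it, and those of CDF1, CDF3, COL2 and CDF2 because these are the 4 members whose transcripts differed between genotypes. Whether CDF proteins act within the 250 bases shown was not tested. Part of the CO window is also exon of AT5G15845, a non-coding gene on the opposite strand. Each sequence is the 250 bases before the annotated start in the TAIR10.1 assembly, 5′ to 3′ on the strand of the gene. In the CO promoter the capitals mark the Dof core, AAAG on either strand. In the others they mark an evening element (AAAATATCT) or a G-box (CACGTG), a clock element and a light-response element, on either strand.
CO (chr5:5173086-5173335, minus strand): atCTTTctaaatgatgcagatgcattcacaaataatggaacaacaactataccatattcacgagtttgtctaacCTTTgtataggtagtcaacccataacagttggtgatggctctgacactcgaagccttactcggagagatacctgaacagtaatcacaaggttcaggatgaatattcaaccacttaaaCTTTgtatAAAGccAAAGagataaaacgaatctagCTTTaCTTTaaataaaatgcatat
CDF1 (chr5:25071112-25071361, minus strand): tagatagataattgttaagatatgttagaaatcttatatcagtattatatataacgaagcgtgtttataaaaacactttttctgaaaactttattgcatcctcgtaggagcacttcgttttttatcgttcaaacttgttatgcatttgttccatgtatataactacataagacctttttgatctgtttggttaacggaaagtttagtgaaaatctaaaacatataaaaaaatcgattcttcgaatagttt
CDF3 (chr3:17506125-17506374, minus strand): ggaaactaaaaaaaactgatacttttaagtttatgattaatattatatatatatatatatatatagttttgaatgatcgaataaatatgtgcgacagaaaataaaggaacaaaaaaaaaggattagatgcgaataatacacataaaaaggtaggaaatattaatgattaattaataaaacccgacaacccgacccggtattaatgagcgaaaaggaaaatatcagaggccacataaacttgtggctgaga
COL2 (chr3:489468-489717, minus strand): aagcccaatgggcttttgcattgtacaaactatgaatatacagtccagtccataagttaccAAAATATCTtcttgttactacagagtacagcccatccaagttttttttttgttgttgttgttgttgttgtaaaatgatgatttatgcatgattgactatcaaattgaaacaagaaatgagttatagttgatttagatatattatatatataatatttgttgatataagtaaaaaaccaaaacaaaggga
CDF2 (chr5:15878448-15878697, plus strand): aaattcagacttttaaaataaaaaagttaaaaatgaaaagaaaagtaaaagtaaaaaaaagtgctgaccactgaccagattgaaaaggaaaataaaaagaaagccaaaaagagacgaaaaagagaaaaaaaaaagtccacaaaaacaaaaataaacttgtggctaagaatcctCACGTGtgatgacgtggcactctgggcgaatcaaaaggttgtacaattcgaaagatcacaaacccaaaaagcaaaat
The CO promoter held 7 Dof cores; the median over 27443 promoters of coding genes was 4.0 (quartiles 3.0 and 5.0), and 98.0% held at least 1. The CDF2 promoter held more, 15, that of COL1 held 6, that of CDF3 held 5, those of CDF1, FKF1 and CDF5 held 4 each, and that of COL2 held 2; they are not in capitals here. The COL2 promoter held an evening element that begins 189 bases before the start, a word found in 2.36% of those promoters. FKF1 also held one, on the opposite strand, 186 bases before its start. The CDF2 promoter held a G-box 77 bases before the start, a word in 6.49% of promoters. The CCA1-binding site AAAAATCT, in 6.69% of promoters, was found only in that of CDF5 among the 8. In the windows of CO, COL1, CDF1 and CDF3, none of these 3 words occurred. No match overlapped another. These are matches of letters only.

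Of the 8 genes, 4 were abundant, 3 had few reads and 1 was listed at 0. Levels of different genes are compared per length, as recovered reads per kb of merged exon scaled to library depth (RPKM). Depth here is the total of recovered reads, not the library size behind the adjusted counts. Differences between genotypes were tested on the adjusted counts alone. COL2 stood at 44.9 ± 2.81 in al24567, 42.3 ± 0.877 in ring1a1b and 55.5 ± 0.847 in Col-0 (SD, n = 3 each, as throughout). CDF3 stood on the same scale at 33.3 ± 2.83 in al24567, 47.2 ± 0.32 in ring1a1b and 45.0 ± 0.776 in Col-0. Its lowest ring1a1b library (47.0) lay above its highest Col-0 library (45.6) by RPKM, whereas the adjusted counts of these genotypes overlapped. CDF1 stood at 19.6 ± 0.684 in al24567, 39.1 ± 1.56 in ring1a1b and 37.9 ± 2.55 in Col-0. CDF2 stood at 10.8 ± 0.177 in al24567, 9.58 ± 0.382 in ring1a1b and 13.9 ± 0.799 in Col-0. The order COL2, CDF3, CDF1, CDF2 held in al24567 and Col-0 with no overlap between neighbours' libraries. In ring1a1b CDF3 stood above COL2 by this length. With the exon bases that no other gene shares as the length, COL2 was at 62.1 ± 1.29 there and stayed above CDF3, so that order rests on the length used. CDF5, FKF1 and CO were lower by far. CDF5 stood at 0.222 ± 0.178 in al24567, 0.428 ± 0.135 in ring1a1b and 0.361 ± 0.035 in Col-0. FKF1 stood at 0.117 ± 0.0961 in al24567, 0.198 ± 0.136 in ring1a1b and 0.103 ± 0.0632 in Col-0. CO stood at 0.0547 ± 0.0371 in al24567, 0.181 ± 0.145 in ring1a1b and 0.0983 ± 0.0706 in Col-0. The libraries of FKF1 and CO overlapped in every genotype. By merged exon length those of CDF5 and FKF1 overlapped in both mutants but not in Col-0. With the unshared exon bases as the length, CDF5 stood at 0.553 ± 0.442 in al24567, 1.07 ± 0.336 in ring1a1b and 0.9 ± 0.0873 in Col-0. FKF1 then stood at 0.118 ± 0.097 in al24567, 0.2 ± 0.137 in ring1a1b and 0.104 ± 0.0638 in Col-0. The level of CDF5, and its overlap with FKF1, thus rest on the length used.

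**Figure D1:**
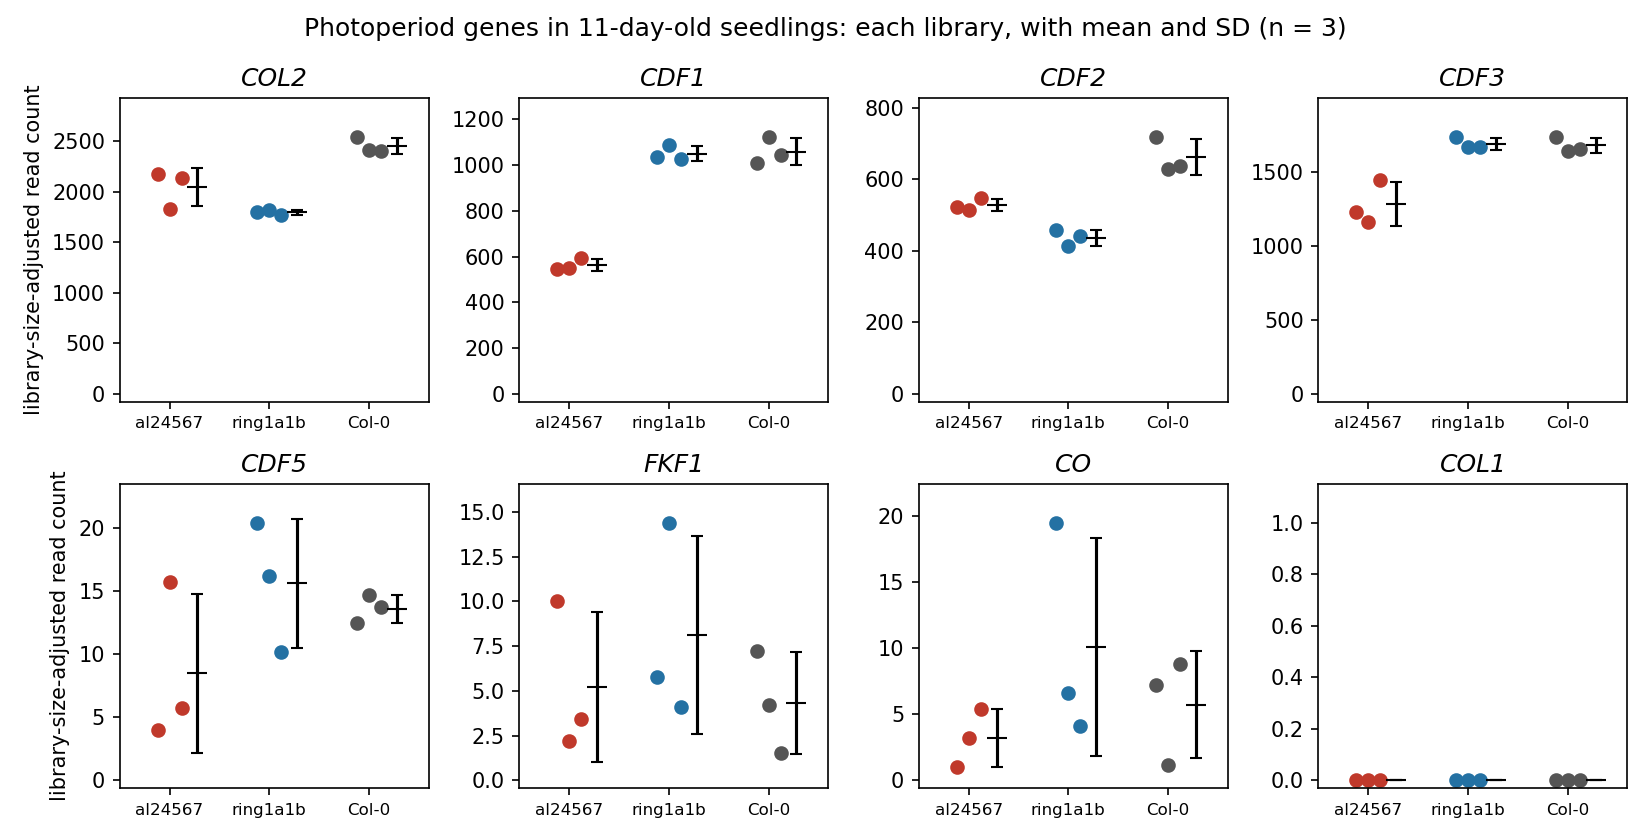
Library-size-adjusted read count (vertical axis, own scale per gene) of each photoperiod gene in the 3 libraries of al24567, ring1a1b and Col-0; points are libraries, and the bar beside them is the mean with its SD. CDF1 and CDF3 are low in al24567 alone, COL2 and CDF2 are low in both mutants, and CDF5, FKF1 and CO stay at or below 20.4.

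Set against Col-0, al24567 shows how the photoperiod transcripts stand when ALFIN-like genes are mutated. Transcripts of the repressors CDF1, CDF2 and CDF3 and of the CO relative COL2 fell in al24567, CDF1 by far the most. CO, FKF1 and CDF5 did not pass the test, and the smallest unadjusted p among them was 0.088, of CDF5. So 4 of the 8 fell and none rose, with 3 not called and COL1 not tested; of all 23207 genes tested 36.3% were called, 17.9% higher and 18.4% lower. The median log2 fold change of the 7 tested members was -0.40, and -0.02 over all genes tested.

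CDF1 (AT5G62430; chromosome 5, 25069093 to 25071111) had adjusted counts of 545, 551 and 595 in al24567, against 1008, 1125 and 1043 in Col-0. Every al24567 library lay far below every Col-0 library. CDF1 thus fell by 46.7%, a log2 fold change of -0.91 ± 0.07 (SE; limma, adjusted p = 2.79e-08). Of all genes tested, 47.7% showed no overlap between the libraries of these genotypes, so a separation by itself is common in this comparison.

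CDF3 (AT3G47500; chromosome 3, 17503883 to 17506124) had 1229.7, 1160.4 and 1446 in al24567, against 1736, 1639 and 1654 in Col-0. The al24567 libraries were the lower ones without overlap, replicate 3 being closest to Col-0. CDF3 fell by 24% (log2 fold change -0.40 ± 0.08, limma adjusted p = 0.000476). CDF2 (AT5G39660; chromosome 5, 15878698 to 15881537) had 522, 514 and 547 in al24567, against 719, 628 and 638 in Col-0. The groups did not overlap here either, and CDF2 fell by 20.1% (log2 fold change -0.32 ± 0.09, limma adjusted p = 0.00574).

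COL2 (AT3G02380; chromosome 3, 487069 to 489467), a close relative of CO with the same B-box and CCT domains, had 2174, 1829 and 2134 in al24567, against 2547, 2410.4 and 2402 in Col-0. It fell by 16.8% (log2 fold change -0.27 ± 0.07, limma adjusted p = 0.00646). Its groups did not overlap, and al24567 replicate 2 was the lowest. Of the exon bases of COL2, 31.8% also lie in exons of AT3G02370 or AT3G02390 on the other strand. AT3G02390, 98.6% of whose exon bases are shared with COL2, had 0 reads in all 9 libraries.

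The same genes were then followed in ring1a1b, with the same Col-0 libraries as controls. COL2 and CDF2 fell in ring1a1b, while CDF1 and CDF3 were not called and their intervals allow only small differences. CO, FKF1 and CDF5 were again not called, with unadjusted p of 0.224 or more. So 2 of the 8 fell and none rose, with 5 not called; of all 23207 genes tested 17.7% were called, 10% higher and 7.67% lower. The median log2 fold change of the 7 tested members was 0.01, and -0.02 over all genes tested. The number of genes called lower, 1780, was 1102 without Col-0 replicate 1, 1161 without Col-0 replicate 3 and 1110 without ring1a1b replicate 3; with library totals made equal 2672 were called higher and 1156 lower, against 2331 and 1780.

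CDF2 had 457, 413 and 440 in ring1a1b, against the Col-0 values above, of which the lowest was 628. It fell by 33.9% (log2 fold change -0.60 ± 0.09, limma adjusted p = 5.62e-05). COL2 had 1799.6, 1821 and 1768 in ring1a1b, within a narrow range and all below the lowest Col-0 value of 2402. It fell by 26.7% (log2 fold change -0.45 ± 0.07, limma adjusted p = 0.000173). Without overlap in either gene, ring1a1b was the lower genotype; 35.7% of all genes tested separated in this way.

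CDF1 had 1037, 1087 and 1026 in ring1a1b, amid the Col-0 libraries, with a log2 fold change of -0.01 and a 95% interval of -0.17 to 0.14. CDF3 had 1733, 1664 and 1664 in ring1a1b, with a log2 fold change of 0.01 and an interval of -0.15 to 0.17. The sign of the CDF1 value turned with library totals made equal (0.05) and that of CDF3 without Col-0 replicate 2 (-0.01), both still uncalled.

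The comparison of ring1a1b with al24567 tests the difference between the mutants directly; all 3 comparisons share libraries pairwise and are not independent of each other. CDF1 and CDF3 were higher in ring1a1b than in al24567, and CDF2 and COL2 were lower, so 2 members were called higher, 2 lower and 3 in neither direction. Of all genes tested 39.0% were called, 20.0% higher and 18.9% lower; with equal totals 6030 genes were called higher and 3247 lower, against 4652 and 4388. CDF1 differed by a log2 fold change of 0.90 ± 0.07 (limma adjusted p = 2.23e-08) and CDF3 by 0.41 ± 0.08 (limma adjusted p = 0.000348). Libraries of the mutants did not overlap for any of these 4 genes, as for 47.2% of all genes tested.

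The differences of CDF2 and COL2 between the mutants were smaller and less secure. That of CDF2 was -0.27 ± 0.09 (limma adjusted p = 0.016), and its call was lost without al24567 replicate 3 (limma adjusted p = 0.0501), without ring1a1b replicate 2 (0.0669) and with equal totals (0.116). That of COL2 was -0.18 ± 0.07 (limma adjusted p = 0.0488). Its call was lost under 11 of 14 alternatives, with adjusted p of 0.0046 to 0.329 over all of them. The libraries without which it was lost were al24567 replicate 1 (0.162), al24567 replicate 3 (0.141), ring1a1b replicate 1 (0.0902), ring1a1b replicate 2 (0.0833) and ring1a1b replicate 3 (0.131).

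**Figure D2:**
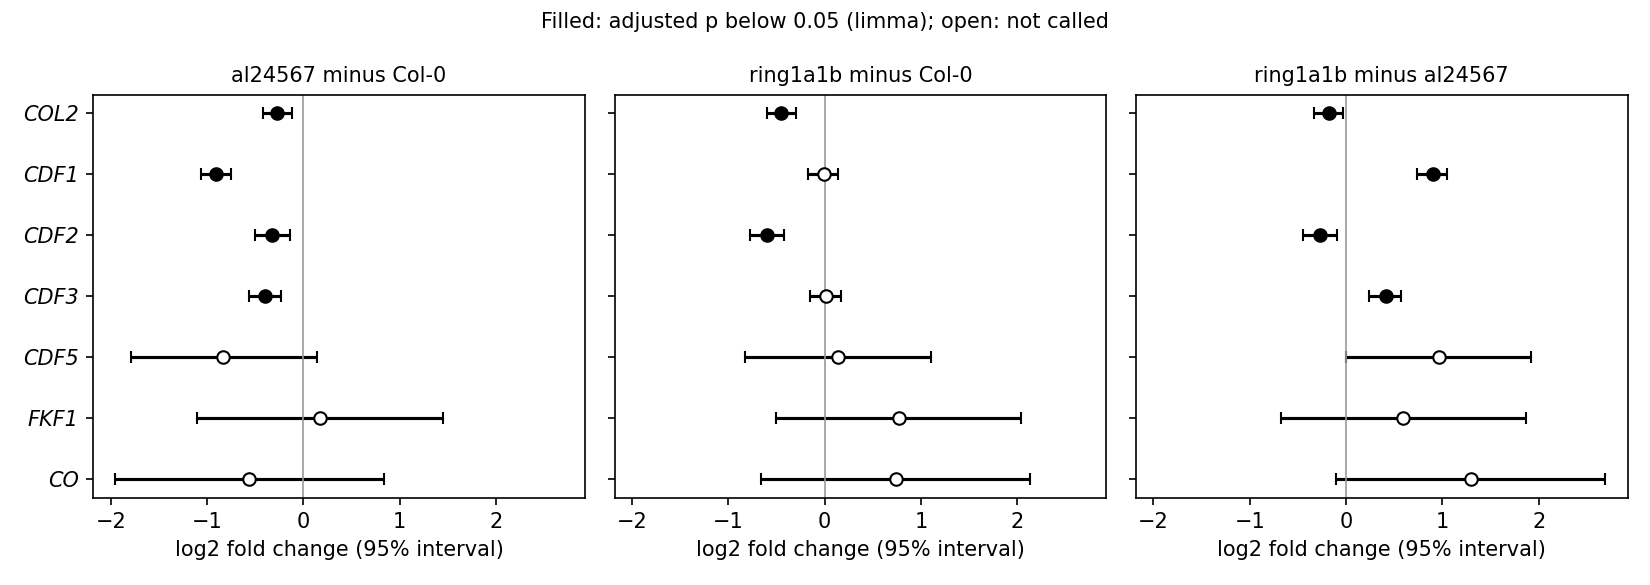
Log2 fold change (horizontal axis) of the 7 tested members in each comparison, with 95% intervals from limma; filled points passed an adjusted p of 0.05 and open points did not. CDF1 and CDF3 are filled where al24567 takes part and sit at -0.01 and 0.01 in ring1a1b against Col-0, and CDF5, FKF1 and CO are open with wide intervals throughout.

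CDF1 and CDF3 make up most of the summed CDF transcripts, so the sum follows them by construction. By RPKM that sum does not show the fall of CDF2 in ring1a1b. On the RPKM scale, CDF1, CDF2, CDF3 and CDF5 summed to 61.3, 62.8 and 67.6 in al24567, to 95.8, 97.4 and 95.7 in ring1a1b and to 96.0, 98.1 and 97.5 in Col-0. The al24567 sums were lower than all others, whereas ring1a1b and Col-0 were close to each other on this scale. RPKM is scaled to the total reads of a library, whereas the tests used the adjusted counts. Making library totals equal moved the median log2 fold change of all genes by 0.06 in ring1a1b against Col-0. How close the sums of ring1a1b and Col-0 lie therefore rests on the scale used. The makeup of the sum also differed. CDF1 took 30.7% ± 1.05 of it in al24567, 40.6% ± 1.23 in ring1a1b and 39.0% ± 2.19 in Col-0. CDF2 took 16.9% ± 0.758 in al24567, 9.95% ± 0.493 in ring1a1b and 14.3% ± 0.989 in Col-0. CDF3 was the largest part everywhere, at 52.1% ± 1.98 in al24567, 49.0% ± 0.719 in ring1a1b and 46.3% ± 1.27 in Col-0, and CDF5 stayed below 1%. The sums and shares are given as a description without a test.

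**Figure D3:**
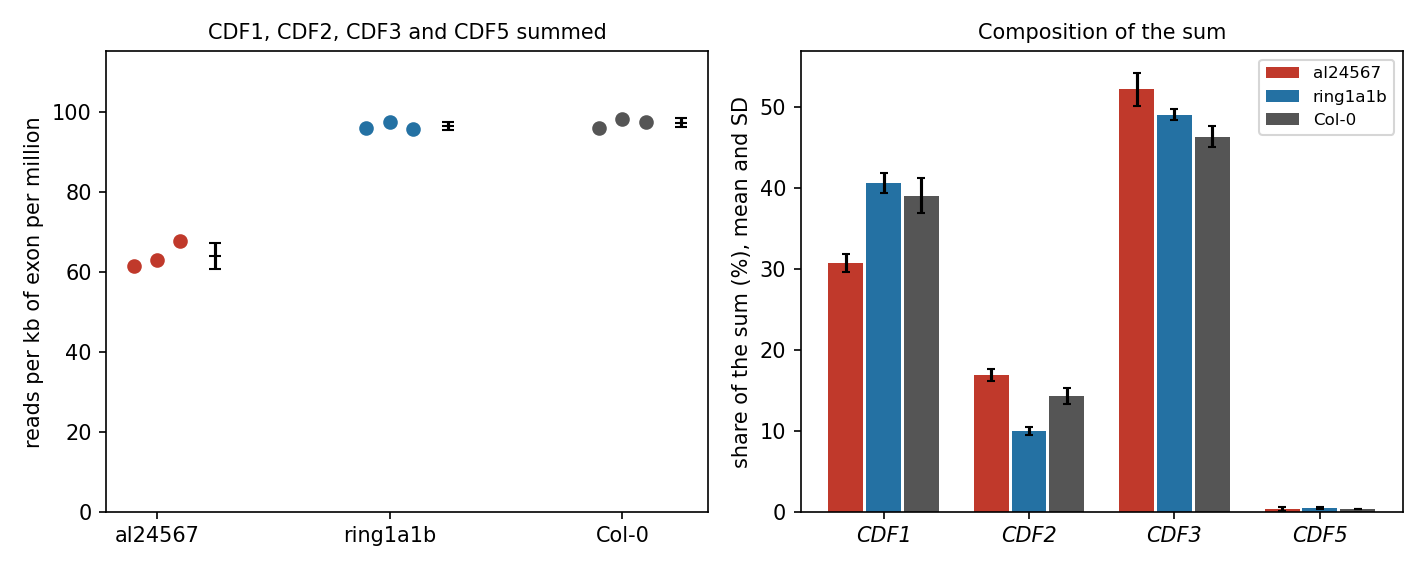
Left, RPKM (reads per kb of exon, scaled to library depth) of CDF1, CDF2, CDF3 and CDF5 summed, by library, with mean and SD; right, each gene's mean share of that sum with SD. The al24567 sums are between 61.3 and 67.6, under those of ring1a1b and Col-0, and CDF1 has its smallest share in al24567 and CDF2 in ring1a1b.

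The genes with few reads were CO, FKF1 and CDF5, and both the low number of reads and the spread between libraries limit what can be said of them. CO (AT5G15840; chromosome 5, 5170162 to 5173085) had 1, 3 and 5 reads in al24567, 20, 7 and 4 in ring1a1b, and 7, 1 and 10 in Col-0. Summed over libraries these are 9 reads in al24567 (exact 95% Poisson interval 4.12 to 17.1), 31 in ring1a1b (21.1 to 44.0) and 18 in Col-0 (10.7 to 28.4); such intervals cover counting error only. The libraries overlapped in each pair of genotypes, and ring1a1b replicate 1 held most of that genotype's reads. The log2 fold change of CO was -0.56 (95% interval -1.95 to 0.84; limma adjusted p = 0.553) in al24567 and 0.74 (-0.66 to 2.13; limma adjusted p = 0.519) in ring1a1b against Col-0. Between the mutants it was 1.3 (-0.10 to 2.69; limma adjusted p = 0.135). The summed counts of the mutants differ beyond counting error, but the 20, 7 and 4 reads in ring1a1b are themselves far apart, and no comparison called CO.

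FKF1 (AT1G68050; chromosome 1, 25508639 to 25510907) had 10, 2 and 3 reads in al24567, 6, 15 and 4 in ring1a1b, and 7, 4 and 2 in Col-0. Its libraries overlapped in every pair. The log2 fold change was 0.17 (95% interval -1.10 to 1.45; limma adjusted p = 0.858) in al24567 and 0.77 (-0.51 to 2.04; limma adjusted p = 0.451) in ring1a1b. Only 1.0% of its exon bases lie in an exon of another gene.

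CDF5 (AT1G69570; chromosome 1, 26161528 to 26163715), the fourth CDF repressor of the set, had 4, 15 and 5 reads in al24567, 21, 17 and 10 in ring1a1b, and 12, 14 and 16 in Col-0. A pair of al24567 libraries lay below all others. By adjusted count al24567 replicate 2, at 15.7, lay above every Col-0 library (12.5, 14.7 and 13.7) and within the range of ring1a1b. The log2 fold change was -0.83 in al24567 against Col-0 (95% interval -1.79 to 0.14; limma adjusted p = 0.174) and 0.14 in ring1a1b (-0.83 to 1.10; limma adjusted p = 0.888). Without al24567 replicate 2 CDF5 was called lower in al24567 than in Col-0 (-1.34, limma adjusted p = 0.0294) and higher in ring1a1b than in al24567 (1.47, limma adjusted p = 0.0165). In each of these comparisons the other 12 alternatives left it uncalled. Against Col-0 it stood at -0.47 without al24567 replicate 1 (limma adjusted p = 0.494) and at -0.67 without al24567 replicate 3 (0.346). On the recovered counts that adjusted p was 0.356 by edgeR and 0.416 by DESeq2. Of its exon bases 59.9%, and of its coding bases 82.9%, also lie in the exons of the antisense non-coding gene AT1G69572. That gene, 99.9% of whose exon bases are shared with CDF5, had 0 reads in all 9 libraries. Its 0 cannot be told apart from reads that were not assigned to a gene.

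COL1 (AT5G15850; chromosome 5, 5176091 to 5177897) was listed at 0 in all 9 libraries. COL1 lies 3.0 kb from CO, and 100% of its exon bases fall inside exons of AT5G15845, a non-coding gene on the opposite strand, which itself had 14 reads in al24567, 13 in ring1a1b and 28 in Col-0. Among the coding genes of the table, 351 of 368 whose exon bases are all shared with another gene were at 0 in every library, or 95.4%, against 2955 of 19818 (14.9%) with no shared exon base. The share did not rise evenly: it was 3.75% for models that share up to 50% of their exon bases, the class of CO, COL2 and FKF1, and 43.2% for those that share more than 50% but not all, the class of CDF5. A 0 for COL1 therefore cannot be told apart from reads that were not assigned to a gene, and no limit on its level is given. CO shares 25.4% of its merged exon bases and 46.2% of its coding bases with AT5G15843 and AT5G15845 on the other strand. AT5G15843, 100% of whose exon bases are shared with CO, was also at 0 throughout. CDF1, CDF2 and CDF3 share no exon base with any other gene.

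**Figure D4:**
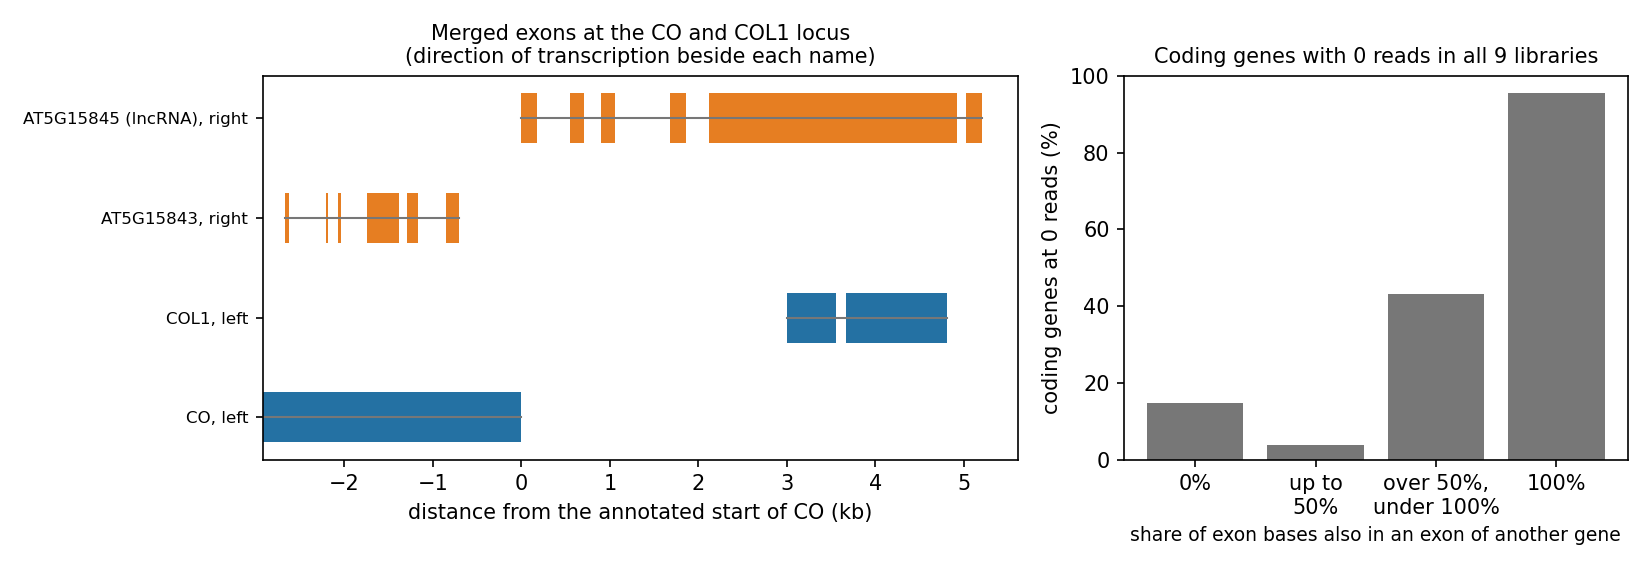
Left, merged exons (boxes) of CO, COL1 and the overlapping genes AT5G15843 and AT5G15845 by distance from the annotated start of CO in kb, blue transcribed to the left and orange to the right; right, percentage of coding genes with 0 reads in all 9 libraries by the share of their exon bases that lies in another gene's exon. The exons of COL1 are wholly covered by AT5G15845, and 95.4% of coding genes with such full coverage are at 0.

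Genes around the members are described by lists, whose counts stand against the 36.3% of all genes tested that were called in al24567 and the 17.7% called in ring1a1b. The genes, lists and rules were chosen with earlier results of these data known. Among 7 regulators of CO transcription or of CDF stability, FBH4, a helix-loop-helix activator of CO, rose in al24567 (log2 fold change 0.60 ± 0.17, limma adjusted p = 0.00981) and 6 were not called, GI among them (-0.01 ± 0.08). Part of the exon bases of FBH4 is shared with another gene. Its RPKM in al24567 was 3.48 by merged exon length and 5.95 by unshared exon bases. In ring1a1b GI, the partner of FKF1, had 1089, 998 and 1059, against 779.6, 947 and 841 in Col-0, and was higher in all 3 libraries. GI rose there (log2 fold change 0.30 ± 0.08, limma adjusted p = 0.0131) and 6 were not called. That call was lost on leaving out replicate 1 of Col-0 (limma adjusted p = 0.0912) or of ring1a1b (0.0546), and replicate 3 of Col-0 (0.0542) or of ring1a1b (0.0528). With 1 of 7 called in each mutant, the list was below the share of all genes in al24567 and close to it in ring1a1b. The medians of this list were 0.03 in al24567 and 0.02 in ring1a1b. ZTL and LKP2 are the relatives of FKF1. ZTL averaged 1383 ± 217 in al24567, 1313 ± 73.1 in ring1a1b and 1296 ± 19 in Col-0. LKP2 averaged 483 ± 57.7 in al24567, 497 ± 35.1 in ring1a1b and 471 ± 12.4 in Col-0, and neither gene was called in either mutant.

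Of 20 genes that act on the CO protein or with it, 6 fell and 2 rose in al24567, leaving 12 uncalled; the 8 called of 20 are close to the 36.3% of all genes, and the median log2 fold change was -0.05. NF-YC4, a subunit of the nuclear factor Y complexes that CO joins on the FT promoter, fell by 0.52 ± 0.10 (log2; limma adjusted p = 0.000332). SPA3, which with COP1 marks CO for degradation in the dark, fell by 0.40 ± 0.08 (limma adjusted p = 0.000701). BBX31, a small B-box protein that binds CO and represses FT, rose by 1.24 ± 0.26 (limma adjusted p = 0.00088). In ring1a1b 2 fell and 1 rose, leaving 17 uncalled, close to the 17.7% called of all genes, and the median was -0.09. SPA3 (-0.29 ± 0.08) and NF-YC4 (-0.30 ± 0.10) fell and TOE2 (0.29 ± 0.09), an AP2-type repressor of FT, rose, with limma adjusted p of 0.0178, 0.0412 and 0.0258. All 3 calls were lost when single libraries were left out. For SPA3 these were Col-0 replicate 1 (adjusted p = 0.0912 by limma), Col-0 replicate 3 (0.0687) and ring1a1b replicate 3 (0.124), and the call was also lost with equal totals (0.0561). For TOE2 they were replicates 1 and 3 of ring1a1b (0.0881 and 0.116) and of Col-0 (0.0892 and 0.086). For NF-YC4 they were every ring1a1b library (0.0619, 0.0996 and 0.143 for replicates 1, 2 and 3) and replicates 1 and 3 of Col-0 (0.163 and 0.165), and the call was also lost with equal totals (0.0977) and by DESeq2 (0.0507).

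FT, the target on which CO and the CDFs converge, had 1, 4 and 0 reads in al24567, 0, 7 and 0 in ring1a1b, and 4, 9 and 8 in Col-0. The log2 fold change of FT was -1.77 ± 0.78 in al24567 (limma adjusted p = 0.0868) and -1.92 ± 0.78 in ring1a1b (limma adjusted p = 0.103). Neither was called. Leaving out replicate 2 of the mutant, the library with the most FT reads in each, gave -2.38 (limma adjusted p = 0.0384) in al24567 and -2.90 (limma adjusted p = 0.0117) in ring1a1b. Leaving out al24567 replicate 3 gave -1.22 (limma adjusted p = 0.29) and leaving out ring1a1b replicate 3 gave -1.43 (0.326), so the value moves with single libraries. On the recovered counts the adjusted p of FT was 0.169 by edgeR and 0.237 by DESeq2 in al24567, and 0.336 by edgeR and 0.45 by DESeq2 in ring1a1b. Of the 4 targets, SOC1 and FUL, MADS-box promoters of flowering downstream of FT, fell in al24567 and 2 were not called, where 36.3% of all genes were called. SOC1 had 262, 229.5 and 284 in al24567, 901, 1088 and 1063 in ring1a1b, and 978, 936 and 837 in Col-0, so that only al24567 stood apart in it (log2 fold change -1.83 ± 0.10, limma adjusted p = 1.59e-10). FUL averaged 2.47 ± 1.19 in al24567 and 22.8 ± 3.87 in Col-0, a log2 fold change of -2.84 ± 0.41 (limma adjusted p = 2.08e-05). In ring1a1b limma called 0 of the 4, against 17.7% of all genes, and FT alone had an unadjusted p under 0.05 (0.0242). The medians of the 4 were -1.80 in al24567 and 0.29 in ring1a1b.

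The other CO-like genes are annotated as COL3, COL4, COL5, COL9 and BBX8 to BBX17; 13 of 14 were found and 11 were tested. In al24567 3 of the 11 fell and 8 were not called, fewer calls than the 36.3% of all genes: BBX17 by 1.91 ± 0.16, COL5 by 0.43 ± 0.07 and BBX16 by 0.37 ± 0.08 on the log2 scale (limma adjusted p = 3.29e-08, 8.02e-05 and 0.000966). In ring1a1b 4 of the 11 were called, all lower, where 7.67% of all genes were called lower, and the smallest p were those of BBX15 (-0.54 ± 0.09), BBX17 (-0.78 ± 0.16) and BBX14 (-0.32 ± 0.07), with limma adjusted p of 0.000212, 0.00188 and 0.00312. Their medians were -0.14 in al24567 and -0.06 in ring1a1b.

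Some clock genes changed in the same libraries. Of 15 tested, 7 fell and 2 rose in al24567, leaving 6 uncalled, where 36.3% of all genes were called. In ring1a1b 5 fell and 1 rose, leaving 9 uncalled, where 17.7% of all genes were called. Their median log2 fold change was -0.34 in al24567 and -0.12 in ring1a1b. CCA1, a morning repressor, had 3344, 2907 and 3300.4 in al24567, 2492, 2494 and 2314 in ring1a1b, and 4761, 4839 and 4758 in Col-0. CCA1 fell in both mutants, by 0.59 ± 0.07 in al24567 (log2; limma adjusted p = 1.73e-06) and by 0.98 ± 0.07 in ring1a1b (limma adjusted p = 8.43e-09). LHY, its close relative, had 2548, 2605 and 3168 in al24567, 1073, 1011 and 909.5 in ring1a1b, and 1686, 1606 and 1838 in Col-0. LHY thus rose in al24567 (0.69 ± 0.09, limma adjusted p = 4.98e-06) and fell in ring1a1b (-0.78 ± 0.09, limma adjusted p = 3.43e-06). PRR7, a day-phase repressor, fell by 0.67 ± 0.07 in al24567 (limma adjusted p = 9.76e-07), and RVE8, a morning activator, by 0.71 ± 0.07 in ring1a1b (limma adjusted p = 1.09e-06). Since the members cycle with the clock, these values stand beside those of COL2 and the CDF genes; their part in the differences of the members was not tested.

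By Pearson's r of log2 values over the 9 libraries, the abundant members formed 2 pairs. These were COL2 with CDF2 (0.94) and CDF1 with CDF3 (0.93), and the other pairs among them had r of 0.04 to 0.16. The same r was searched over 16839 genes outside the members with a mean of at least 50, as a description. The 9 libraries fall into 3 genotypes, so r mostly reflects the genotype means. The gene most like COL2 was CCA1 (r = 0.971), followed by ACDO1 (0.964). Those most like CDF2 were AT3G06955 (0.977) and AT1G04680 (0.973). Those most like CDF1 were CYP71B12, a cytochrome P450 gene that averaged 79.2 in al24567, 518 in ring1a1b and 576 in Col-0, and TAPX, a thylakoid ascorbate peroxidase gene (both 0.991). Those most like CDF3 were GH9B7 (0.992) and AT5G18030 (0.988). Relative to the Col-0 mean, CDF1 averaged 0.532 in al24567 and 0.992 in ring1a1b, and CDF3 averaged 0.763 in al24567 and 1.01 in ring1a1b. COL2 averaged 0.834 in al24567 and 0.732 in ring1a1b, CDF2 averaged 0.797 in al24567 and 0.66 in ring1a1b, and CCA1 averaged 0.665 in al24567 and 0.508 in ring1a1b.

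**Figure D5:**
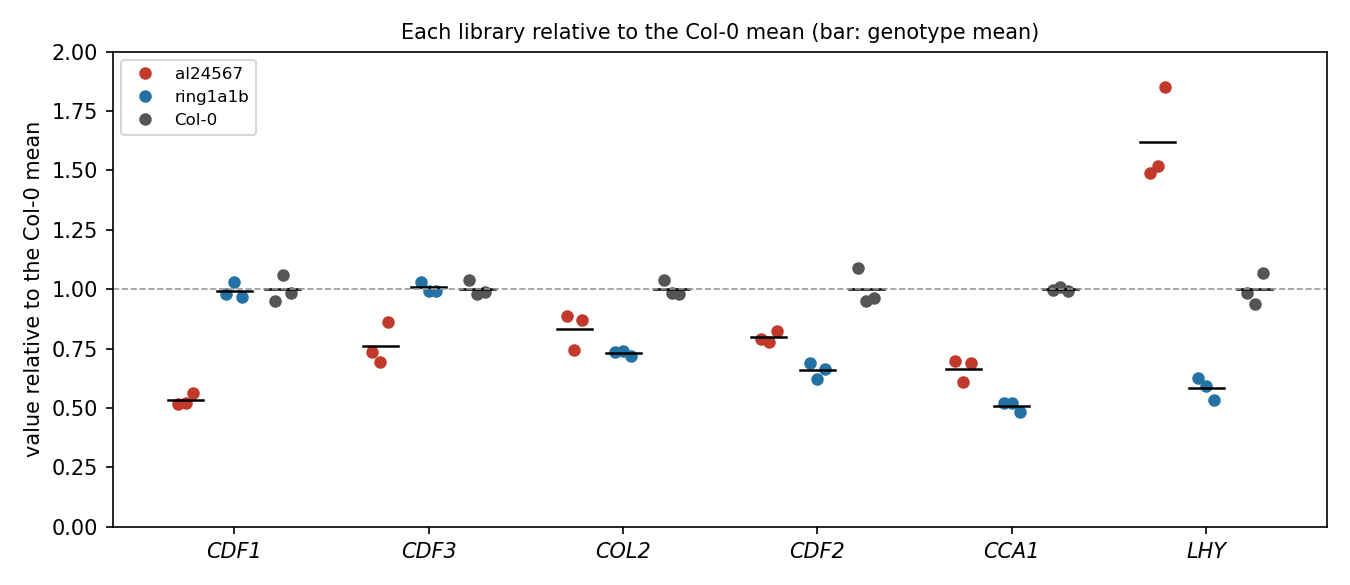
Value of CDF1, CDF3, COL2, CDF2 and of the clock genes CCA1 and LHY in each library relative to the Col-0 mean of the gene (vertical axis, dashed line at 1), with genotype means as bars. CDF1 and CDF3 are low in al24567 alone, COL2, CDF2 and CCA1 have means from 0.665 to 0.834 in al24567 and from 0.508 to 0.732 in ring1a1b, and LHY lies above 1 in al24567 and below it in ring1a1b.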

How the data were processed

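Libraries from TRIzol-extracted seedling RNA were read from both ends (NovaSeq), per the labels' protocols. Reads were processed with bcl2fastq, HISAT2 and edgeR against TAIR10, per the submitters' processing notes; versions, the counting tool, annotation and strand setting are not given in the sources used here. The deposited signal values were recognised from the values as edgeR's pseudo-counts, that is, counts brought to the size of a shared library. That adjustment was inverted with a size per library and a dispersion of 0.008262. The results were rounded to whole counts, or moved to a neighbouring whole number where the match was poor. Adjusting these counts again gave back 100.0000% of 292932 values (tolerance 0.01 or a relative 1e-05). Genes without reads match by construction, and 25179 of the 32548 genes had reads.

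The 23207 genes that reached a value of 1 in 3 or more libraries were fitted with limma 3.58.1 in R 4.3.3 on log2(value + 1), limma-trend, with 1 model of all 9 libraries and 6 residual degrees of freedom before moderation; a call means an adjusted p under 0.05 (Benjamini-Hochberg over all of these genes). Fold changes are on that log2(value + 1) scale. For genes with few reads they differed in either direction from those on the recovered counts. In al24567 against Col-0, CO stood at -0.56 and by edgeR at -0.82, while CDF5 stood at -0.83 and by edgeR at -0.68. The alternatives tried were no filter on low values, a minimum of 100, a pseudocount of 0.1, equal library totals, a fit of just the 2 genotypes in question, a block for the replicate number, edgeR 4.0.16 and DESeq2 1.42.0 on the recovered counts, and each library left out.

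Gene models, coordinates and promoters are from the RefSeq annotation of TAIR10.1. BBX11, CDF4, CDF6, COG1 and RVE6 were listed but not matched by name. AT1G69570 is called CDF5 after the list of members, since the reference table holds no such symbol. Levels between genes use RPKM computed from the recovered reads and merged exons. Where genes overlap on opposite strands, their reads could not be separated, no strand setting being stated. Named genes were all 8 members, FT and GI, for each list and each comparison with Col-0 the called genes of smallest p, up to 3 (or 1 where none was called), and the 2 genes most like a member. The members and lists were chosen with earlier results of these data known. ZTL and LKP2 were named outside that rule, after their values were seen. Figures were made with matplotlib 3.10.9.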

Additional observations from a re-analysis of the deposited data

How the results depend on the processing

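The calls of CDF1, CDF2, CDF3 and COL2 in al24567 and of CDF2 and COL2 in ring1a1b, each against Col-0, held under all 14 alternatives. Between the mutants, 2 members were called lower, but 1 with a pseudocount of 0.1, without a filter, with only the 2 genotypes compared, by edgeR and by DESeq2, and 0 with equal totals; leaving out a library gave 0 to 2. With each library left out, the genes called lower in ring1a1b numbered 1102 to 1455 against 1780, and 1156 with equal totals; equal totals moved the median log2 fold change of all genes by 0.06 there and by 0.10 between the mutants. Signs turned for uncalled values near 0. In ring1a1b against Col-0, CDF1 stood at 0.05 with equal totals, 0.00 by edgeR and DESeq2, 0.03 without Col-0 replicate 2 and 0.01 without ring1a1b replicate 3 (lowest on leaving out a library -0.05); CDF3 stood at -0.01 without Col-0 replicate 2 or ring1a1b replicate 1 and at -0.00 without Col-0 replicate 3, and CDF5 ran from -0.07 without ring1a1b replicate 1 to 0.39. In al24567, FKF1 stood at -0.28 without Col-0 replicate 3 and at -0.34 without al24567 replicate 1 (highest 0.56), and GI at 0.00 by DESeq2, 0.07 without Col-0 replicate 2 and 0.01 without al24567 replicate 2. Between the mutants, FT stood at 0.36 by edgeR and DESeq2, at 0.46 without al24567 replicate 2, and at 0.34 without ring1a1b replicate 1 or 3 (lowest -1.14). The cause was not tested.

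Replicate numbers are shared by the genotypes, but in no comparison did every same-numbered pair deviate together with a correlation over 0.1; the correlations were -0.033 to 0.075 for al24567 and 0.045, 0.12 and 0.164 for ring1a1b, each with Col-0, so the numbers were not taken to pair the libraries. With the replicate number as a block, 4 members were still called lower in al24567 and 2 in ring1a1b; the genes called numbered 4233 higher and 4341 lower in al24567 and 2406 higher and 1899 lower in ring1a1b. FT was called under the block (adjusted p = 0.0386 in al24567 and 0.0454 in ring1a1b, limma). Few reads, at most 48 per genotype, and the spread between libraries limit CO, FKF1, CDF5 and FT, and the gene models limit COL1.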
